A study of Bos taurus with 10 samples.

Results

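The glucocorticoid receptor group comprises 7 genes: the receptor itself (NR3C1), the related mineralocorticoid receptor (NR3C2), the enzyme HSD11B1 and the response genes FKBP5, TSC22D3, SGK1 and PER1. Members were taken by gene symbol from the platform annotation, using probe sets assigned to a single gene, and every probe set was kept apart. Of the 7 genes, 4 had such probe sets: NR3C1 had 2, SGK1 had 3, and HSD11B1 and FKBP5 had 1 each, which made 7 of the 24016 probe sets tested and 4 of the 9155 genes with a single-symbol probe set. TSC22D3, PER1 and NR3C2 had 0 single-symbol probe sets and were not analysed here. The group was selected on measured values, since the CLA minus control difference of NR3C1 in these pools was already known, so the differences of all members below are a description and support nothing by themselves.

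The receptor is a transcription factor that is held in the cytosol by chaperones until cortisol binds it, whereupon it moves to the nucleus and switches target genes on or off. In liver it is known for driving gluconeogenesis and amino acid breakdown and for damping inflammation. HSD11B1, an enzyme of the endoplasmic reticulum, regenerates active cortisol from inactive cortisone inside the hepatocyte.

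The samples were liver biopsies of female Holstein cows in week 5 of lactation. In the CLA group, 20 cows were fed conjugated linoleic acid (CLA), a name for forms of linoleic acid whose double bonds are separated by a lone single bond, in a fat protected from rumen microbes. In the control group, 20 cows were fed a control fat protected likewise. Either fat made up 27.3% of an extra concentrate, of which each cow got 630 g of dry matter daily between week 3 before and week 14 after calving, in addition to a ration common to both groups. RNA of 4 cows was combined per array, giving 5 CLA pools and 5 control pools of first-calf and older cows. The sources used here gave neither the ages of the cows nor the fatty acids in the fats, nor how first-calf and older cows were split among pools.

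Expression was read on a 1-colour Affymetrix bovine array, and values are log2 expression. Array medians lay between 5.79 and 5.82 in the CLA pools and between 5.83 and 5.85 in the control pools, without overlap. CLA pool 2 and control pool 4 had the lowest median correlation with the other arrays (0.990 each, against 0.992 to 0.995 in the rest), and the values of members and list medians that turned or moved by over 1.5 times without these 2 pools are given beside them. At most 2.65% of the values of any 2 arrays were identical, so each pool was counted as a sample of its own. The tissue carried the marks of liver: the 11 measured hepatocyte markers lay between the 81.0th (HNF4A) and the 99.996th percentile (albumin, ALB) of mean signal. ALB averaged 14.93 in CLA pools and 14.88 in control pools. All 11 lay above the dimmest 30% of probe sets, but so did all measured T and NK lymphocyte markers, so that alone is no mark of liver. In bulk tissue, fewer cells of a type and less RNA per cell cannot be told apart.

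The study set CLA pools against control pools to find genes of early-lactation liver that respond to the fat. NR3C1 was the member with the clearest difference. At its brighter probe set the log2 values of CLA pools 1 to 5 were 8.63, 8.75, 8.93, 8.52 and 8.71. In control pools 1 to 5 they were 8.01, 8.14, 8.40, 7.69 and 8.21. Every CLA pool lay above every control pool, and the lowest CLA pool was 0.12 above the highest control pool. Over all probe sets, 1.18% had CLA pools that lay wholly above the control pools, and 1.97% had pools apart in either direction. Among the members this probe set was the 1 of 7 whose pools did not overlap. Since that contrast led to the choice of the gene, the count is given without further reading.

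The mean of this NR3C1 probe set was 8.71 ± 0.15 in CLA pools and 8.09 ± 0.26 in control pools (SD, n = 5 each). The difference was 0.62 ± 0.12 SE on the log2 scale, or 1.53-fold, with a 95% interval from 1.27-fold to 1.85-fold. Control pool 4 was the lowest of the 10 pools, and without it the difference was 0.52 ± 0.10 SE. Without both control pool 4 and CLA pool 2 it was 0.51 ± 0.11 SE. The groups stayed apart after quantile normalization, after subtraction of array medians and after cyclic loess normalization, with differences of 0.59, 0.65 and 0.60.

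**Figure D1:**
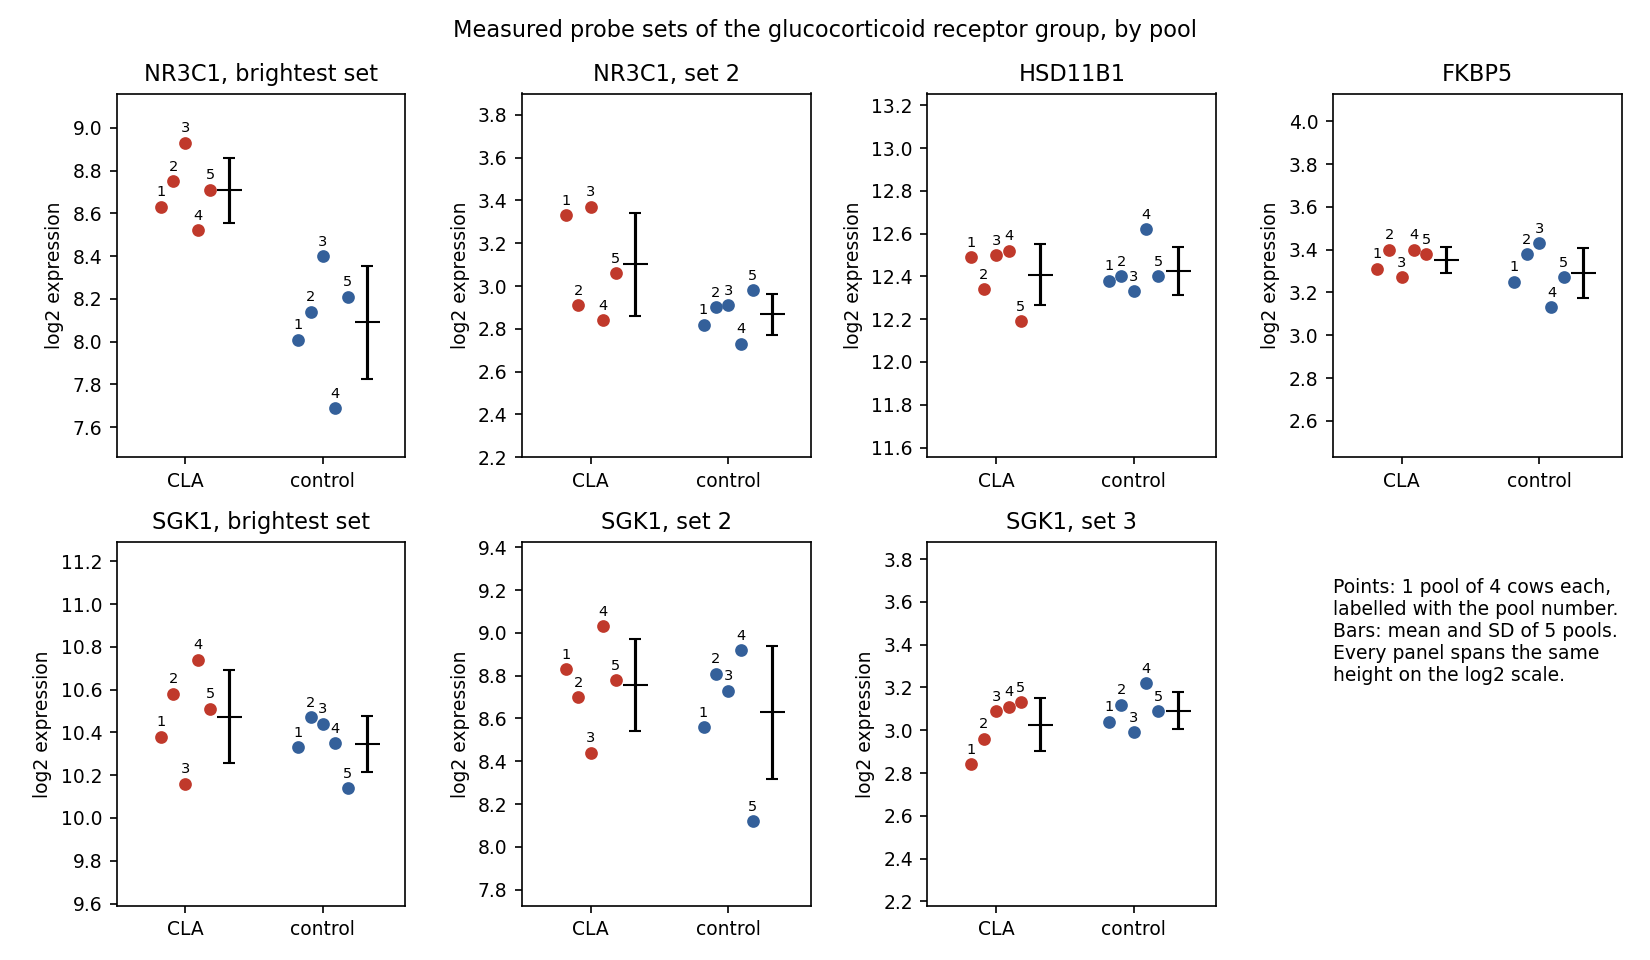
Log2 expression of the 7 measured probe sets in each pool of 4 cows, with CLA pools in red on the left and control pools in blue on the right of every panel, and with the mean and SD of 5 pools as bars. At the brightest NR3C1 probe set all CLA values (8.52 to 8.93) lie above all control values (7.69 to 8.40), and in the other 6 panels the groups overlap.

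The second NR3C1 probe set was among the dimmest on the array, at the 6.08th percentile of mean signal, against the 82.6th for the first. CLA pools 1 to 5 read 3.33, 2.91, 3.37, 2.84 and 3.06. Control pools 1 to 5 read 2.82, 2.90, 2.91, 2.73 and 2.98. CLA pools 1, 3 and 5 were above all control pools, while CLA pools 2 and 4 lay within the control range. The difference was 0.23 ± 0.11 SE, with a 95% interval from -0.0018 to 0.47. The values carry no detection call, so it is not known whether this probe set read the transcript above background.

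HSD11B1, the cortisol-regenerating enzyme, was among the brightest probe sets of the array (98.9th percentile). CLA pools 1 to 5 read 12.49, 12.34, 12.50, 12.52 and 12.19, and control pools 1 to 5 read 12.38, 12.40, 12.33, 12.62 and 12.40. The groups overlapped, and control pool 4, where NR3C1 was lowest, had the highest HSD11B1. Means were 12.41 ± 0.14 in CLA pools and 12.43 ± 0.11 in control pools (SD, n = 5 each). The difference was -0.018 ± 0.085 SE, and its sign turned when CLA pool 5 (0.037), control pool 4 (0.031) or both CLA pool 2 and control pool 4 (0.048) were left out. It also turned with array weights (0.033) and after subtraction of array medians (0.013). The 95% interval, without adjustment over probe sets, ran from 0.869-fold to 1.12-fold.

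SGK1, a serine/threonine kinase that glucocorticoids induce and that regulates ion channels and transporters, was read by 2 bright probe sets and 1 dim one. At the brightest (95.3rd percentile) CLA pools 1 to 5 read 10.38, 10.58, 10.16, 10.74 and 10.51. Control pools 1 to 5 read 10.33, 10.47, 10.44, 10.35 and 10.14. CLA pools 2, 4 and 5 stood above all control pools and CLA pool 3 near the bottom of the control range, so the groups overlapped. The difference was 0.13 ± 0.11 SE (95% interval 0.930-fold to 1.28-fold), and it was 0.062 with CLA pool 4 left out, 0.077 with control pool 5 left out and 0.21 with CLA pool 3 left out.

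The second bright SGK1 probe set gave 8.83, 8.70, 8.44, 9.03 and 8.78 in CLA pools 1 to 5. In control pools 1 to 5 it gave 8.56, 8.81, 8.73, 8.92 and 8.12. As at the brightest set, CLA pool 4 was highest and CLA pool 3 lowest of the CLA pools, and control pool 5 was the lowest of all. Its difference was 0.13 ± 0.15 SE, which was 0.001 with control pool 5 left out and 0.060 with CLA pool 4 left out. Leaving out control pool 4 gave 0.20 and leaving out CLA pool 3 gave 0.21. Without both CLA pool 2 and control pool 4 it was 0.22. The third SGK1 probe set (7.41st percentile) read 2.84 to 3.13 in CLA pools and 2.99 to 3.22 in control pools, with a difference of -0.066 ± 0.077 SE. That difference was -0.020 with CLA pool 1 left out, -0.034 with control pool 4 left out and -0.018 with both CLA pool 2 and control pool 4 left out.

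FKBP5 encodes a cochaperone that lowers the hormone affinity of the receptor, and its transcript is a widely used readout of receptor activity. Its probe set was dim, at the 12.5th percentile. CLA pools 1 to 5 read 3.31, 3.40, 3.27, 3.40 and 3.38. Control pools 1 to 5 read 3.25, 3.38, 3.43, 3.13 and 3.27. The groups overlapped, and the difference was 0.060 ± 0.072 SE. It was 0.020 without control pool 4, 0.095 without control pool 3 and 0.0075 without both CLA pool 2 and control pool 4. As for the dim NR3C1 probe set, it is not known whether this signal lay above background.

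**Figure D2:**
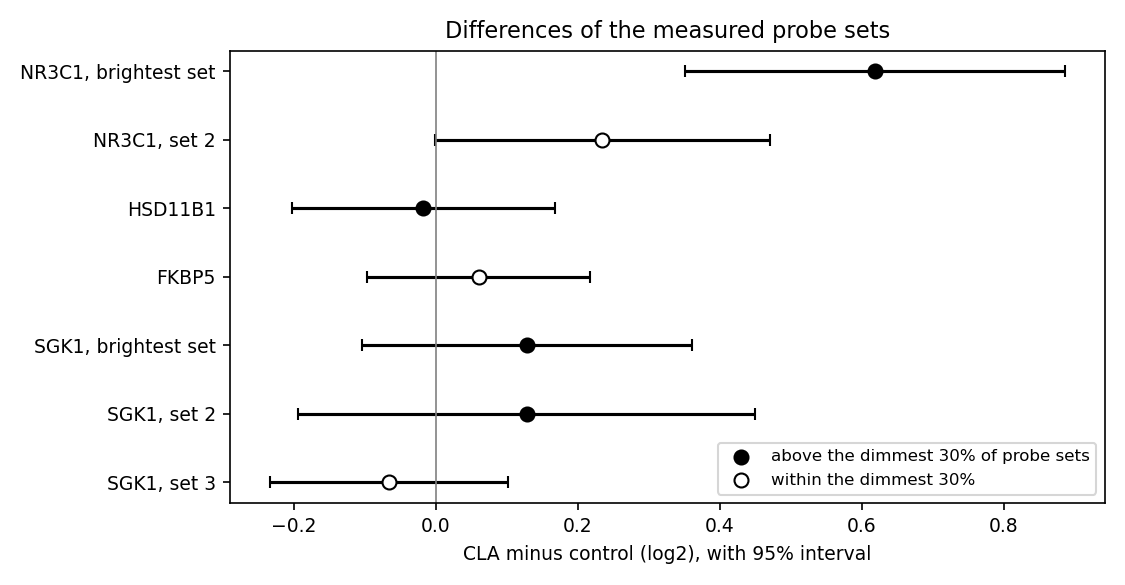
Difference CLA minus control on the log2 scale (horizontal axis) for the 7 measured probe sets, with 95% intervals from the limma fit over all probe sets. Filled points are probe sets above the dimmest 30% of the array and open points are those within it. The brightest NR3C1 probe set (0.62) is the 1 whose interval excludes 0, without adjustment over probe sets. Its contrast led to the choice of the gene, and its limma adjusted p was 0.272.

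Limma's fit over all 24016 probe sets, with Benjamini-Hochberg adjustment, called 0 probe sets at an adjusted p under 0.05 (0% of those tested) and therefore 0 of the 7 members. The adjusted p of the brightest NR3C1 probe set was 0.272, and those of the other 6 lay between 0.562 and 0.972. At an unadjusted p under 0.05 the fit counted 2135 probe sets (8.89%), 962 higher (4.01%) and 1173 lower (4.88%) in CLA pools, of which the brightest NR3C1 probe set was the 1 member. That split turned under other scalings, since quantile normalization gave 1100 higher and 817 lower, cyclic loess gave 1196 higher and 779 lower, and subtracting array medians gave 1474 higher and 627 lower. The unmoderated test also called 0 after adjustment. Each p measures the spread between pools of 4 cows.

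Variation among pools of the same diet was not itself used to choose the genes. The clarity of the NR3C1 contrast depends in part on that variation, so the SD of NR3C1 may not be independent of the choice. The within-group SD of the bright NR3C1 probe set was 0.216, at the 79.0th percentile of all probe sets, and that of HSD11B1 was 0.128, at the 33.0th. The bright SGK1 probe sets had SDs of 0.179 and 0.268 (65.6th and 88.6th percentile), and FKBP5 had 0.093 (11.8th). HSD11B1 was thus the steadiest of the bright members among pools and SGK1 and NR3C1 the more variable ones.

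Whether the members moved together was examined over the 10 pools after subtracting group means, in 7 relations tested with exact two-sided permutations of pools within groups (14400 orders) and Benjamini-Hochberg adjustment. The 2 bright SGK1 probe sets varied together, with Pearson's r = 0.78 (exact permutation p = 0.00694, adjusted 0.0486) and Spearman's rho = 0.66 (exact permutation p = 0.0427, adjusted 0.149). Without the 2 pools farthest from the median of the brightest set, r was 0.68. The relation passed the adjusted test (exact permutation, adjusted p = 0.0316 each) without CLA pool 1 and without control pool 4. Without any other single pool it did not, with r from 0.71 to 0.82 and adjusted p from 0.0510 to 0.214. With the third, dim SGK1 probe set, the brightest had r = 0.079 (exact permutation p = 0.854, adjusted 0.854) and rho = 0.12 (exact permutation p = 0.778, adjusted 0.778), with r = 0.15 without the 2 farthest pools. The second bright set had r = 0.14 with it (exact permutation p = 0.684, adjusted 0.798) and rho = 0.31 (exact permutation p = 0.409, adjusted 0.573), with r = 0.53 without the 2 farthest pools.

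The bright and the dim NR3C1 probe sets had r = 0.54 (exact permutation p = 0.0464, adjusted 0.162) and rho = 0.65 (exact permutation p = 0.0299, adjusted 0.149), with r = 0.60 without the 2 farthest pools. Without CLA pool 1, r was 0.71 (exact permutation, adjusted p = 0.0316). HSD11B1 and NR3C1 had r = -0.54 (exact permutation p = 0.108, adjusted 0.252) and rho = -0.45 (exact permutation p = 0.214, adjusted 0.499). That relation rested on control pools 3 and 4, the 2 pools farthest from the median of NR3C1, since r was -0.085 without them. Over CLA pools alone r was -0.12 and over control pools alone -0.91.

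For FKBP5 and NR3C1, r was 0.57 (exact permutation p = 0.168, adjusted 0.294) and rho 0.41 (exact permutation p = 0.300, adjusted 0.526). The 2 diets ran opposite, with r = -0.61 over CLA pools alone and 0.91 over control pools alone. With both diets, r turned to -0.34 without control pools 3 and 4. SGK1 and NR3C1 had r = -0.32 (exact permutation p = 0.330, adjusted 0.462) and rho = -0.21 (exact permutation p = 0.560, adjusted 0.654), with r = -0.73 without the same pools. Over CLA pools alone r was -0.81 and over control pools alone 0.075. With the mean of each gene's probe sets, dim ones included, r was -0.72 (exact permutation p = 0.0310, adjusted 0.0929 over 3 relations). The same means gave r = -0.32 for HSD11B1 and 0.26 for FKBP5 with NR3C1. None of the 4 relations of NR3C1 passed the adjusted test.

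**Figure D3:**
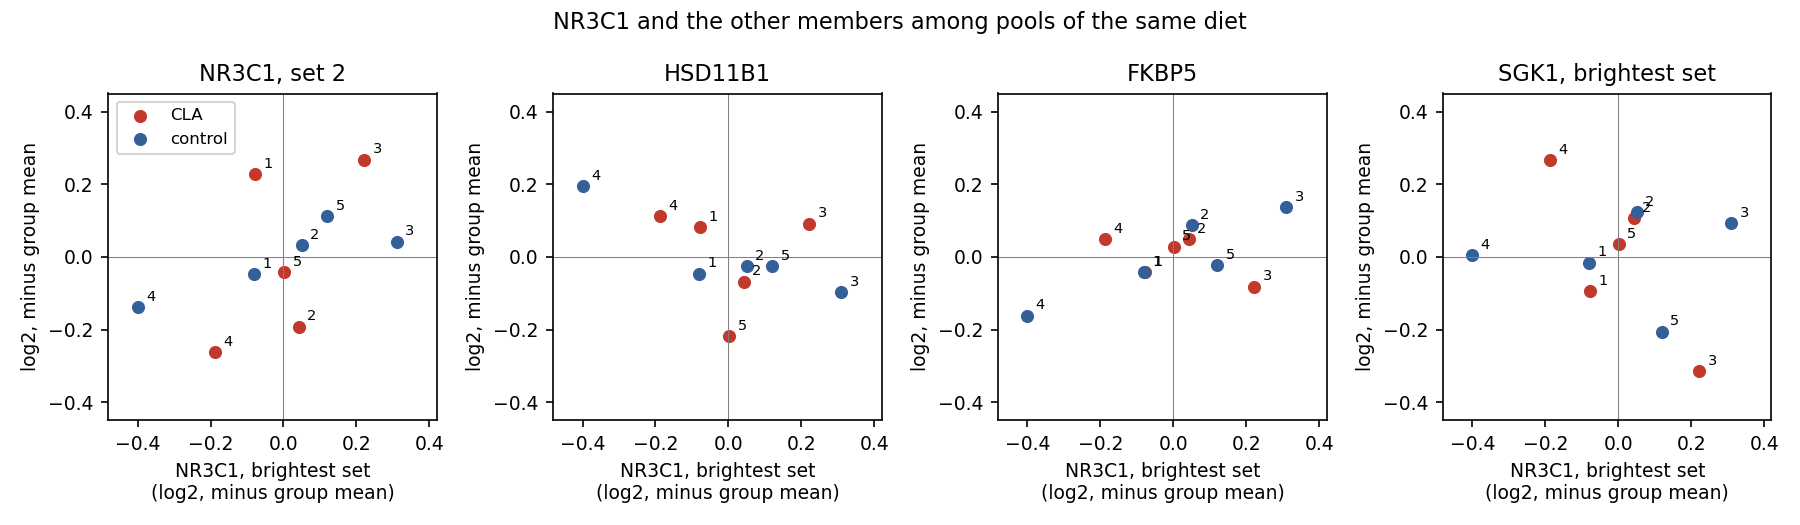
Deviation from the group mean (log2) of the brightest NR3C1 probe set (horizontal axis) against that of its second probe set, HSD11B1, FKBP5 and SGK1 (vertical axes), with 1 point per pool and the pool number beside it. Control pool 4 lies far left in every panel, with the lowest NR3C1 and the highest HSD11B1 of the 5 control pools.

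Among 10178 single-symbol probe sets above the dimmest 30%, the pool pattern most like that of NR3C1, with group means removed, was found in RBBP6, a ubiquitin ligase that binds the retinoblastoma protein (r = 0.95 over 10 pools, 0.93 without control pools 3 and 4). MIA3, which helps load large cargo at the exit sites of the endoplasmic reticulum, had r = 0.93, the golgin GOLGA4 0.92, RNFT1 0.91 and the succinate dehydrogenase assembly factor SDHAF4 0.91. Their r fell to between 0.67 and 0.79 without the same 2 control pools. Further probe sets of RBBP6 and GOLGA4 had r = 0.59 and 0.43, those of RNFT1 0.72 and 0.09, and those of MIA3 ranged from -0.65 to 0.64.

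The most opposite patterns were those of SEMA6A, a semaphorin (r = -0.94), CYP2D14, a bovine cytochrome P450 (-0.94), the ribosomal protein gene RPL24 (-0.92), LOC504773 (-0.91) and TMEM134 (-0.90). A second CYP2D14 probe set also ran opposite to NR3C1 (r = -0.86), while that of RPL24 did not (0.20). These are the extremes of a distribution whose middle 90% ran from -0.63 to 0.58, and no p is attached to them.

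Downstream of the receptor, 40 of 51 listed symbols of glucocorticoid-responsive liver genes were measured, with 1 probe set per gene, the brightest. Of these, 28 were higher and 12 lower in CLA pools, with a median difference of 0.064, and 0 passed limma's adjusted test. Over all probe sets 43.5% were higher, with a median of -0.018, and over all genes at their brightest probe set, without the dimmest 30%, 48.3% were higher with a median of -0.0040. The count was 23 higher and 17 lower without CLA pool 1 (median 0.069). Without CLA pool 2 and control pool 4 it was the same (median 0.041). After quantile and after cyclic loess normalization 26 were higher and 14 lower (median 0.030 each). Subtraction of array medians gave 31 higher and 9 lower (median 0.095). Without single pools the median ranged up to 0.081, and it was lowest without control pool 2 (0.035) and control pool 4 (0.037). At an unadjusted p under 0.05, 7 genes (17.5%, against 8.89% of all probe sets) were counted, 4 higher and 3 lower. The list was written with earlier results of these data known, so that share is a description and supports nothing by itself. The CLA and control pools of all 40 genes overlapped.

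Leading the list by p was CYP7A1, which sets the pace of bile acid synthesis from cholesterol, at 12.20 ± 0.25 in CLA pools and 11.74 ± 0.24 in control pools (SD, n = 5 each; difference 0.46 ± 0.14 SE). CITED2, a transcriptional coregulator, averaged 8.40 ± 0.16 in CLA pools and 8.15 ± 0.088 in control pools (difference 0.25 ± 0.085 SE). The aminotransferase GOT1 averaged 9.71 ± 0.24 in CLA pools and 9.39 ± 0.19 in control pools (difference 0.32 ± 0.12 SE). MT2A, a metallothionein that binds zinc and copper, ran the other way, at 10.67 ± 0.69 in CLA pools and 11.43 ± 0.26 in control pools (difference -0.76 ± 0.27 SE). All 4 kept their sign under the other scalings and without any single pool, with adjusted p from limma between 0.408 and 0.494. The aminotransferase GPT2 (0.28 ± 0.11 SE), the alkaline phosphatase ALPL (-0.19 ± 0.082 SE) and the metallothionein MT1A (-1.19 ± 0.50 SE) made up the rest of the 7.

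The genes most often used as readouts of the receptor in liver are described here by role, a selection made after their values were seen. PCK1, the gluconeogenic carboxykinase, averaged 13.76 ± 0.036 in CLA pools and 13.77 ± 0.060 in control pools (difference -0.010 ± 0.060 SE), and G6PC1, the glucose-releasing phosphatase, differed by 0.054 ± 0.12 SE. TAT, the tyrosine aminotransferase, averaged 7.27 ± 0.60 in CLA pools and 7.24 ± 0.51 in control pools, so that its difference of 0.028 ± 0.29 SE came with a wide error. TDO2, which opens the breakdown of tryptophan, differed by 0.048 ± 0.11 SE and the serine dehydratase SDS by 0.0080 ± 0.21 SE.

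Genes through which the receptor damps inflammation were read as well: NFKBIA, the inhibitor of NF-kappaB, differed by 0.0080 ± 0.094 SE, DUSP1, a phosphatase of stress kinases, by 0.13 ± 0.25 SE and ANXA1, annexin A1, by 0.16 ± 0.15 SE. The receptor-induced transcription factor ZBTB16 differed by -0.19 ± 0.25 SE, KLF15 by -0.020 ± 0.079 SE and the clock gene PER2, a relative of PER1, by 0.16 ± 0.11 SE. The signs of PCK1, NFKBIA and KLF15 turned under another scaling, and those of G6PC1, TAT, TDO2, SDS and DUSP1 turned when a single pool was left out. ZBTB16 was -0.029 without CLA pool 4 and -0.35 without CLA pool 3. ANXA1 was 0.071 without control pool 5 and 0.27 without control pool 1, and PER2 was 0.095 and 0.25 without the same pools.

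**Figure D4:**
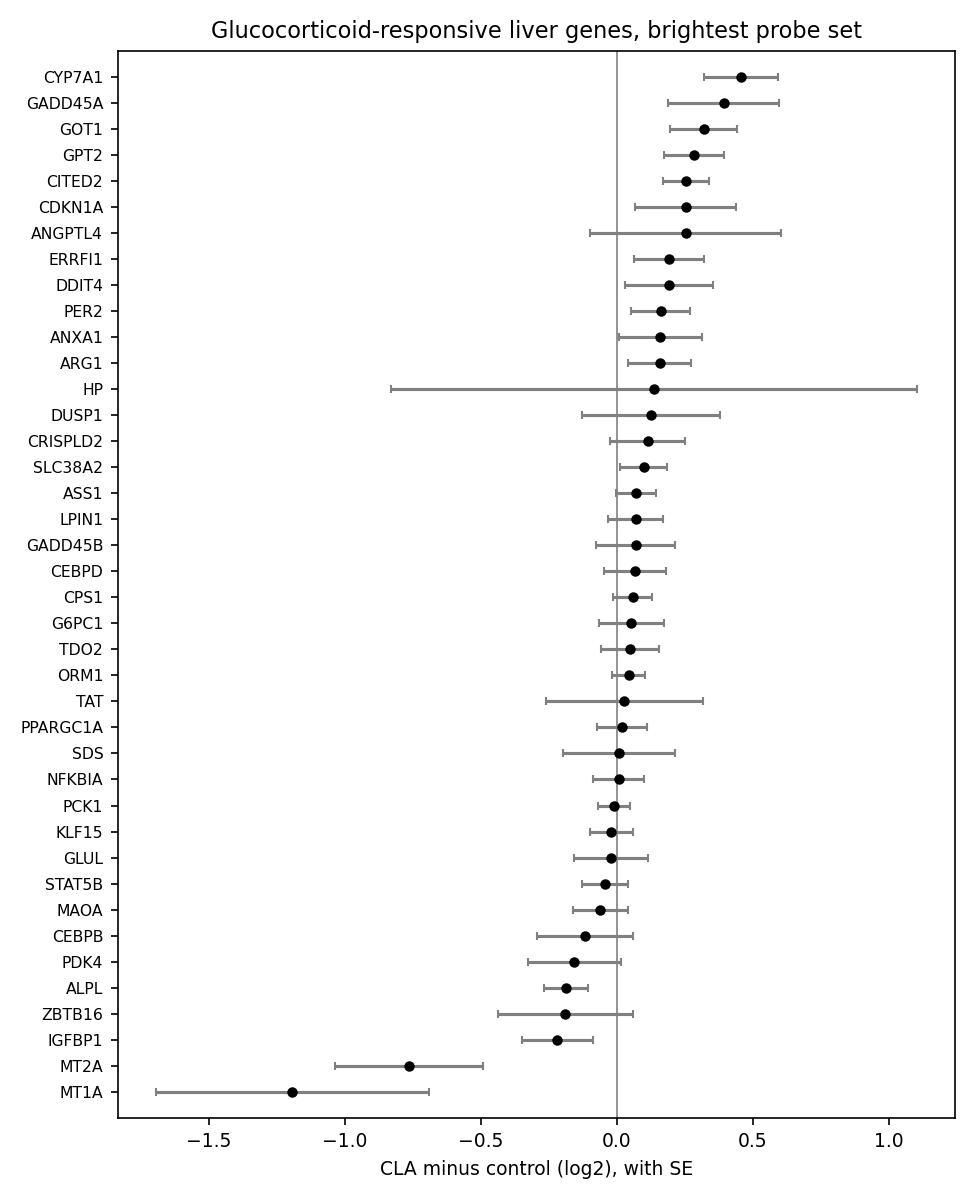
Difference CLA minus control on the log2 scale, with its SE, for the 40 measured glucocorticoid-responsive liver genes, each at its brightest probe set and ordered by size. Most points lie within 0.3 of 0, CYP7A1 is highest (0.46), and the metallothioneins MT2A (-0.76) and MT1A (-1.19) are lowest.

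Upstream of target genes, all 20 listed chaperones and cochaperones that fold the receptor and carry it were measured, with 9 higher and 11 lower in CLA pools, a median of -0.023 and 0 genes at an unadjusted p under 0.05, against 8.89% of all probe sets. Differences lay between -0.14 and 0.14. PTGES3, the p23 cochaperone that stabilises the hormone-binding state, differed by 0.13 ± 0.062 SE and SUGT1 by 0.14 ± 0.081 SE. STUB1, the ubiquitin ligase that turns chaperone clients over, differed by -0.14 ± 0.078 SE, and by -0.078 without control pool 4. FKBP4, which competes with FKBP5 for the receptor complex and favours its transport to the nucleus, differed by -0.12 ± 0.069 SE. The median turned positive after subtraction of array medians (0.0080) and without CLA pool 5 (0.043), control pool 2 (0.036) or control pool 4 (0.0025).

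Coregulators and DNA-binding partners of the receptor had 23 of 38 listed genes measured, with 9 higher and 14 lower and a median of -0.022 that turned positive after subtraction of array medians (0.0090). CBX3, a heterochromatin protein, was the 1 gene of this list whose pools did not overlap: CLA pools 1 to 5 read 10.98, 11.01, 11.12, 11.09 and 11.07, and control pools 1 to 5 read 10.79, 10.97, 10.83, 10.96 and 10.91. Over all probe sets, 1.18% had CLA pools wholly above control pools. The gap between the nearest pools was at the second decimal, and the difference was 0.16 ± 0.065 SE. MED14 and MED24, subunits of the Mediator complex that links receptors to RNA polymerase, differed by 0.21 ± 0.083 SE and -0.15 ± 0.071 SE, although a second, dimmer MED24 probe set differed by 0.14. DAXX, a corepressor, differed by -0.19 ± 0.094 SE.

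Corticosteroid metabolism and binding had 16 of 26 listed genes measured, beside HSD11B1, with 7 higher and 9 lower and a median of -0.020 that turned positive after subtraction of array medians (0.011) and without control pool 4 (0.0060). Without both CLA pool 2 and control pool 4, the median was 0.028, with 10 genes higher and 6 lower. CYP17A1, which diverts steroids from mineralocorticoid precursors towards cortisol and androgens in the adrenal gland and gonads, had CLA pools 1 to 5 at 4.77, 4.55, 4.39, 4.82 and 4.83. Control pools 1 to 5 were at 5.07, 5.14, 4.96, 4.97 and 5.29, all above the CLA pools. The difference was -0.41 ± 0.10 SE at a low signal (37.1st percentile), and 0.791% of all probe sets had CLA pools wholly below control pools. HSD3B1, an enzyme of steroid synthesis, differed by -0.42 ± 0.18 SE.

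HSD11B2, which inactivates cortisol and so opposes HSD11B1, averaged 4.87 ± 0.20 in CLA pools and 4.76 ± 0.075 in control pools (SD, n = 5 each; difference 0.11 ± 0.094 SE), and the difference was 0.045 without CLA pool 4 and 0.18 without CLA pool 1. Its signal was low as well (36.1st percentile). CYP2B6, a drug-metabolising cytochrome P450, differed by 0.27 ± 0.24 SE, and by 0.050 without control pool 2. SERPINA6, the corticosteroid-binding globulin that carries cortisol in blood, was named after its values were seen and averaged 9.24 ± 0.45 in CLA pools and 9.22 ± 0.43 in control pools (SD, n = 5 each), a difference whose sign turned under another scaling.

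Other steroid receptors and lipid-sensing partners had 13 of 16 listed genes measured, with 5 higher and 8 lower and a median of -0.060, which was -0.0055 without CLA pool 1, -0.016 without CLA pool 2 and -0.093 without CLA pool 4. Without both CLA pool 2 and control pool 4 it was -0.0050. ESR2, an oestrogen receptor, had the lowest p of this list, with a difference of 0.33 ± 0.099 SE at a dim probe set (17.6th percentile). PPARG, NR1H2 and PPARA, which sense fatty acids and oxysterols, differed by -0.16 ± 0.077 SE, -0.15 ± 0.080 SE and -0.27 ± 0.17 SE. PPARG was dim, and its difference was -0.097 without control pool 2. The difference of PPARA was -0.16 without CLA pool 3, and its second probe set differed by -0.0080.

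Of 21 listed clock symbols, 9 were measured, with 6 higher and 3 lower and a median of 0.076. NR1D1, the clock repressor REV-ERB alpha, averaged 5.46 ± 0.18 in CLA pools and 5.86 ± 0.36 in control pools (SD, n = 5 each; difference -0.41 ± 0.16 SE). CSNK1E, a kinase of the PER proteins, differed by -0.22 ± 0.092 SE at a dim probe set, and the clock repressor CRY1 by 0.25 ± 0.12 SE. HLF, a clock output factor, had probe sets that disagreed, with 0.16 ± 0.080 SE for the bright one and -0.16 for the dimmer one. Biopsy hour was not given in the sources used here, so its part in these values was not tested. As in the glucocorticoid-responsive list, 0 genes of these 5 lists passed limma's adjusted test.

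**Figure D5:**
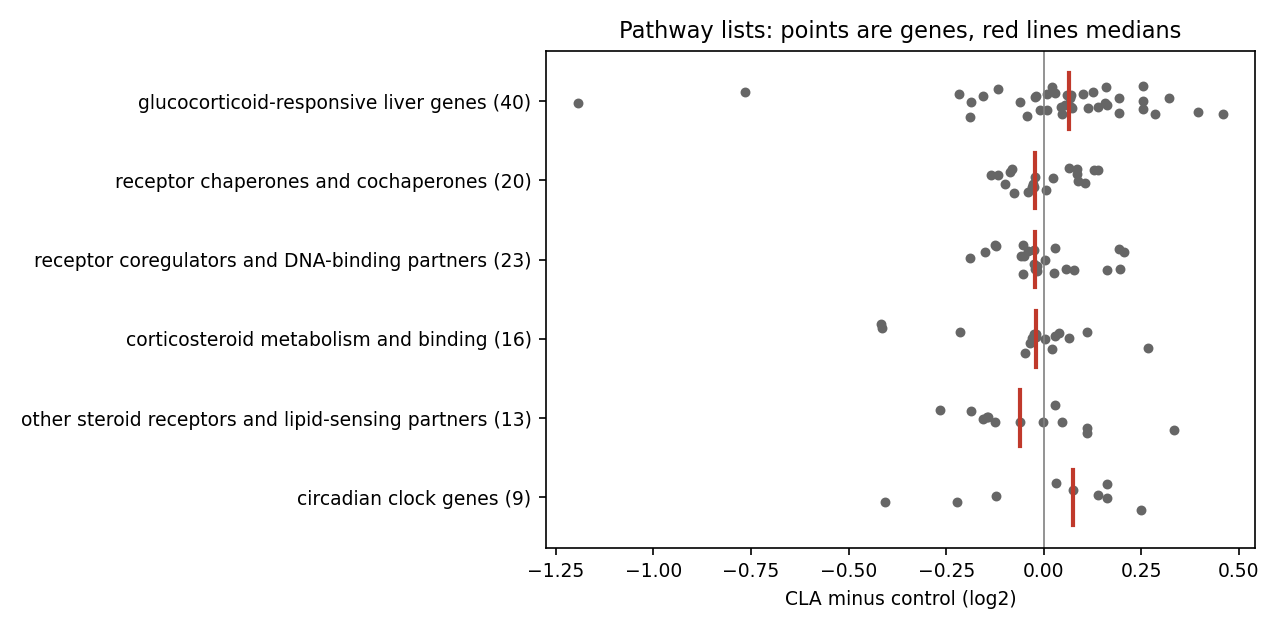
Difference CLA minus control on the log2 scale for each gene of the 6 lists (points, spread vertically for legibility), with the median of each list as a red line and the number of measured genes in brackets. The medians lie between -0.060 and 0.076, while single genes spread more widely on both sides of 0.

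Markers of other cells that also carry the receptor were read beside these values. T and NK lymphocytes had 12 of 13 measured markers lower in CLA pools, and their mean level relative to the control mean ranged from -0.30 to -0.073 in CLA pools and from -0.20 to 0.19 in control pools. The 8 markers of Kupffer cells and macrophages had 7 lower, with scores from -0.17 to 0.11 in CLA pools and from -0.24 to 0.22 in control pools. Of 12 stellate cell and fibroblast markers, 9 were higher (scores from -0.16 to 0.27 in CLA pools and from -0.14 to 0.13 in control pools), and the 12 endothelial markers had 4 higher and 8 lower. Erythroid markers were lower in 6 of 6 and B cell markers in 3 of 4, while neutrophil and cholangiocyte markers had 2 higher and 2 lower each. Among the markers of these other cells, 3 erythroid, 2 endothelial, 1 B cell and 1 neutrophil marker lay in the dimmest 30%. Beside these counts, 43.5% of all probe sets were higher in CLA pools. Of all genes at their brightest probe set, without the dimmest 30%, 48.3% were higher.

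Early response genes that rise with sampling stress, a set that shares DUSP1, HSPA1A, FOS and JUN with the lists above, had 6 of 14 higher, with scores from -0.22 to 0.33 in CLA pools and from -0.19 to 0.22 in control pools. Of 11 hepatocyte markers, which include CPS1 and HNF4A of those lists, 9 were higher, with scores from 0.041 to 0.080 in CLA pools and from -0.096 to 0.069 in control pools. The part of cell makeup or sampling in the NR3C1 difference was not tested.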

How the data were processed

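Liver RNA pools (5 CLA and 5 control, 4 cows each) were read on 10 Affymetrix bovine arrays. The deposited values are log2 expression, normalized by the authors, with Affymetrix Expression Console 1.1 and RMA named in the submitters' processing notes. The order and settings of those steps are not given in the sources used here. Values were used as deposited. Of 24128 probe sets, 112 manufacturer controls were left out. Platform annotation gave 13292 probe sets 1 symbol, 86 several and 10638 none. No genome build is named for the array, so no coordinates are given, and no member's sequence was used.

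CLA minus control differences came from a linear model in limma 3.58.1 (lmFit, then eBayes; R 4.3.3) without covariates, with Benjamini-Hochberg adjustment over 24016 probe sets. The model was tested on simulated data, with calls required at the largest simulated difference and not at smaller ones. Alternatives were each pool left out, a pool-number block, a filter on the dimmest 30%, 3 other scalings, trended and robust eBayes, an unmoderated test and array weights. The fit without CLA pool 2 and control pool 4 was chosen after seeing the data. Named genes were all members, the 4 genes of lowest p per list, and the 5 probe sets most like and most unlike NR3C1 over pools. Members, lists and tests were chosen with earlier results of these data known. The number of arrays limits the precision.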

Additional observations from a re-analysis of the deposited data

Results flagged for a closer look

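Single pools were set against the other 4 of their group with Dixon's test for 94 sets of values (members, named genes of the lists, list and marker scores in each group). In 5 sets 1 pool stood far from the rest, and chance gives about 1 in 20, or 4.7. HSD11B1 in control pool 4 was 12.62, with the other control pools at 12.33 to 12.40. STUB1 in control pool 4 was 8.59, with the others at 8.27 to 8.34, and the endothelial marker score of the same pool was 0.25, with the others from -0.10 to -0.017. CLA pool 5 had a chaperone list score of -0.11, with the other CLA pools at 0.0099 to 0.038, and a clock list score of 0.10, with the others from -0.033 to -0.0027.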

How the results depend on the processing

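All alternative values of the 7 member probe sets (18 or 19 for each) lay within 1 SD between pools of the reported ones. In every alternative that kept all 7, 5 or 6 of the 7 were higher in CLA pools. The first result was largely fixed in advance. Leaving out 1 pool moves a group mean by less than 1 SD, and the block, other eBayes, unmoderated and dim-filter fits left the differences unchanged. A value could also turn sign within 1 SD, as those of HSD11B1 and several list medians did. The brightest NR3C1 probe set ranged from 0.51 to 0.70, with adjusted p from 0.157 to 0.674. Of 115 alternative list medians 113 moved by less than 1 SD. The exceptions were other steroid receptors without CLA pool 1 (range without single pools -0.093 to -0.0055) and without CLA pool 2 and control pool 4 (-0.005). With these 2 pools out, 1 probe set passed the adjusted test (CGN1, 0.97 ± 0.098 SE, limma adjusted p = 0.0302), against 0 in the other alternatives. Probe sets at an unadjusted p under 0.05 split into 1474 higher and 627 lower after subtraction of array medians, and the lower count was 779 after cyclic loess normalization and 648 without the dimmest 30%, which tests fewer probe sets. Non-overlapping probe sets numbered 473, 611 to 925 with 1 pool left out and 1091 with 2 left out, since fewer pools overlap less. Over all probe sets, same-numbered pools did not deviate together (correlations from -0.086 to 0.092), so the numbers were not taken to pair the pools. At the brightest NR3C1 probe set, however, same-numbered pools deviated from their group means in a like way. For CLA and control these deviations were 0.22 and 0.31 in pool 3, and -0.19 and -0.4 in pool 4. In the other pools they also shared their sign, though CLA pool 5 deviated by only 0.002. This was seen at 1 probe set after its values were known, and such likeness was not counted over all probe sets. With the pool number as a replicate block, the unadjusted count was 2168, the adjusted count 0 and the NR3C1 difference 0.62 ± 0.075 SE (limma adjusted p = 0.353), with no call changed. The relation between the bright SGK1 probe sets missed 0.05 after quantile normalization (adjusted p = 0.0598) and subtraction of array medians (0.0501), and that between the NR3C1 probe sets passed after cyclic loess normalization (r = 0.59, exact permutation, adjusted p = 0.0389). Causes were not tested beyond these. The values hold no detection calls, which limits what the 3 dim member probe sets can show.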
